A study of Mus musculus with 43 samples.

Results

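Peritoneal metastases of a pancreatic tumour were compared with the T cells as they were injected, to ask which metabolic gene knockouts T cells gain or lose in abundance on the way to, and within, this metastatic site under PD-1 blockade. The comparison holds 6 of the 43 samples of the series, of which 41 carry values: 3 libraries of peritoneal metastases under anti-PD-1 (the library names start with Mets_PD1) and 3 libraries of T0, the aliquot taken on the day of transfer. The samples were chosen by their titles. In all 6 libraries, sgRNAs were amplified from the genomic DNA of OT-I T cells positive for CD90.1. The cells came from Cas9 knock-in mice on a C57BL/6J background and had been transduced with the same sgRNA library. OT-I cells are CD8+ T cells that carry a receptor against ovalbumin, and Cas9 is expressed in them from the Rosa26 locus. The sgRNA of a cell directs Cas9 to its target gene, and loss of that gene was not measured cell by cell. CD90.1 is a surface protein encoded on the lentiviral vector, used to select transduced cells. The T0 cells had been kept in vitro, were selected on CD90.1 and received no antibody. The other cells had been transferred into young adult Rosa26-Cas9 mice, which are immunocompetent and bore KPC_OVA cells, a pancreatic ductal adenocarcinoma line that expresses ovalbumin, in the pancreas head. Anti-PD-1 was started on the day of transfer, and CD90.1+ cells were sorted from the peritoneal metastases 7 days later. T0 therefore differs from the metastases in culture, transfer, time and antibody together, and the contributions of these cannot be told apart.

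The readout is the abundance of the integrated sgRNA, not expression. A knockout that slows division, kills the cell or keeps it from reaching the peritoneum lowers its sgRNAs, and these cannot be told apart in such a screen. Most knockouts that are lost in any dividing cell hit the core machinery of growth, such as ribosomes, RNA polymerases and nucleotide synthesis, whereas knockouts that are gained in T cells often remove a brake on signalling below the T cell receptor. Activated CD8+ T cells are known to raise glycolysis, mitochondrial respiration, one-carbon metabolism and sterol synthesis as they divide. Both PI3-kinase delta, which forms PIP3, and diacylglycerol kinases, which remove diacylglycerol, act close to the receptor. Whether loss of either lifts a brake was not tested. The cells were not profiled for markers here. The T cell label rests on the CD8+ isolation before transduction and on the CD90.1 selection or sort.

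The library holds 5 sgRNAs for each of 2078 genes and 250 nontargeting sgRNAs. The deposited table identifies sgRNAs by number, without their sequences. A gene score is the mean of log2(signal + 1) over the 5 sgRNAs of a gene, less the nontargeting median of that library, so that 0 is the level of an sgRNA without a target. A change is the mean score of the metastasis libraries minus that of T0, in log2 units, and is given with its standard error (SE). A gene was called enriched or depleted where limma gave an adjusted p, by Benjamini-Hochberg across the 2078 genes, no higher than 0.05.

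Some libraries differed in ways that touch these results. Replicate 2 of the metastases carries spleen as its tissue label against its title, and it was used by its title. Across genes, its scores correlated with those of the other metastasis libraries at r = 0.80 and 0.80, with those of the 3 spleen libraries under anti-PD-1 at 0.82, 0.69 and 0.73, and with those of the 3 primary tumour libraries under anti-PD-1 at 0.84, 0.87 and 0.81. These values describe libraries that share sgRNA composition, and they do not settle the label. The counts over all genes, and the named genes whose call depends on this library, are therefore also given without it. Counts within gene lists include it unless stated otherwise. In the metastases, 10.3%, 19.3% and 4.04% of sgRNAs in replicates 1, 2 and 3 lay at the lowest value that several libraries of a replicate number share, read as an undetected sgRNA, against at most 0.0188% in T0. Nontargeting sgRNAs lay there too, 4.4%, 12% and 1.6% of them against at most 0.4% in T0, and their SD on the log2 scale was 1.93, 2.66 and 1.70 in the metastases and 1.08 to 1.11 in T0. The median change over all genes was -0.55, so that a typical targeted gene lay below the nontargeting median. It was -0.36 without replicate 2, -0.21 with the nontargeting mean for centring and -0.14 with the median of all sgRNAs. Changes near -0.5 are thus those of a typical gene. Among T0 libraries, replicate 3 stood apart, with r = 0.50 and 0.59 across genes to replicates 1 and 2, which correlated at 0.83. T0 replicate 3 correlated with metastasis replicates 1 to 3 at -0.10, -0.05 and -0.11, against 0.39 to 0.60 for T0 replicates 1 and 2.

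Against T0, 4 of 2078 genes were enriched (0.192%) and 393 were depleted (18.9%). All 3 metastasis libraries lay above all 3 T0 libraries for each of the 4 enriched genes and below them for each of the 393 depleted genes, while 42 genes (2.02%) were above and 785 (37.8%) below in this sense among all genes tested. Of the depleted genes, 325 had all 5 sgRNAs below T0 and 125 had a change under -5. Without replicate 2 of the metastases, 13 genes were enriched (0.626%) and 431 depleted (20.7%), and 4 and 368 genes, respectively, were called in both fits. With the spread taken from all 41 libraries, 270 genes were depleted, and none in the lists of PI3-kinases, diacylglycerol kinases, phospholipase C, fatty acid synthesis, fatty acid oxidation, GPI anchors and cytochrome P450 described below. No gene was enriched in that fit. With the lymph node libraries left out of it, 3 genes were enriched and 335 depleted. The prior variance, limma's common spread across genes, was 1.55 with the lymph nodes and 0.669 without them. The size of the decreases has a lower end, since an sgRNA cannot go under the lowest value of its library.

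**Figure D1:**
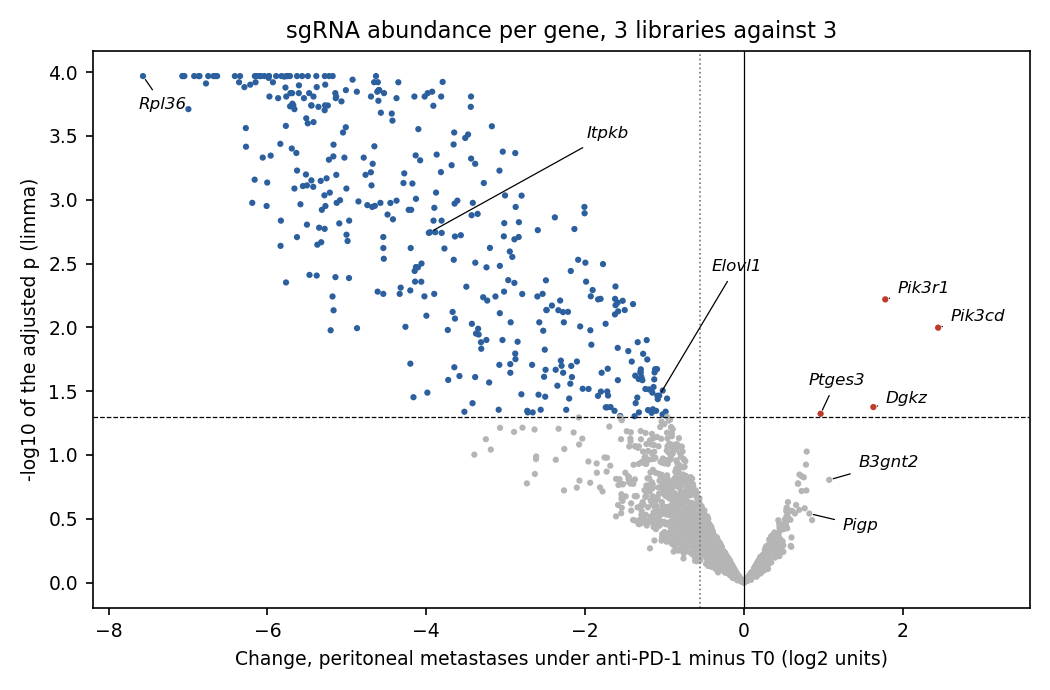
Each point is 1 of 2078 genes, with the change from T0 to peritoneal metastases under anti-PD-1 (log2 units) on the x axis and -log10 of the limma adjusted p on the y axis. Red points are the 4 enriched and blue points the 393 depleted genes, the dashed line marks an adjusted p of 0.05 and the dotted line the median change of all genes (-0.55). Depleted genes spread down to -7.57 (Rpl36), whereas the largest increase is 2.45 (Pik3cd).

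The largest increases were those of both subunits of PI3-kinase delta, the lipid kinase that forms PIP3 below the T cell receptor in lymphocytes. The gene score of *Pik3cd*, the catalytic subunit p110 delta, was 0.47, 0.46 and -0.61 in T0 replicates 1 to 3 and 1.68, 3.12 and 2.85 in the metastases. Every metastasis library was above every T0 library, and replicate 1 was the lowest of the metastases. The change was 2.45 ± 0.49 (SE, n = 3 against 3, limma adjusted p = 0.0101). All 5 sgRNAs contributed, with mean changes from 1.90 to 3.07. The signal of the third sgRNA in library order, for example, was 300.4, 267.5 and 75.1 in T0 and 403.9, 1037 and 679.1 in the metastases. The nontargeting median of T0 replicate 3 is lower than in replicates 1 and 2. After centring, the T0 scores of this sgRNA were 0.02, -0.14 and -1.36, so replicate 3 was still the lowest. Without T0 replicate 3, the change of *Pik3cd* was 2.09 (limma adjusted p = 0.0468).

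*Pik3r1*, the regulatory subunit p85 alpha that holds the catalytic subunits, scored 0.72, 0.47 and -0.04 in T0 and 1.87, 2.37 and 2.26 in the metastases, which stood close together and apart from T0. Its change was 1.78 ± 0.32 (adjusted p = 0.00604), with sgRNA changes from 1.07 to 2.52. Without replicate 2 of the metastases, the change of *Pik3cd* was 2.16 (adjusted p = 0.0306) and that of *Pik3r1* was 1.68 (adjusted p = 0.0114). *Pik3cd* and *Pik3r1* were each called in 17 of 19 other fits run. In the fit that took the spread from all 41 libraries, their adjusted p was 0.229 and 0.278. Leaving the lymph node libraries out of that fit gave a limma adjusted p of 0.00312 and 0.00717.

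The remaining 10 PI3-kinase genes of the library did not follow this pattern. *Pik3ca* and *Pik3cb*, the catalytic subunits alpha and beta, changed by 0.23 and -0.30, and the regulatory subunits *Pik3r2* and *Pik3r3* by -0.38 and 0.43, none past the threshold. *Pik3c3*, the class III kinase Vps34 that serves autophagy and endosomal traffic, was depleted, from 0.01, 0.57 and 0.46 in T0 to -0.92, -2.95 and -1.59 in the metastases (change -2.16 ± 0.52, adjusted p = 0.0245). *Pik3r5*, a regulatory subunit of the gamma form that acts below G protein-coupled receptors, was also depleted (-1.38 ± 0.39, adjusted p = 0.0497), though with the nontargeting mean for centring its adjusted p was 0.216. The catalytic gamma subunit *Pik3cg* scored 0.17, 0.55 and 0.15 in T0 and -0.35, -1.97 and -1.08 in the metastases (change -1.42, adjusted p = 0.0664). Of the 12 PI3-kinase genes, 2 were thus enriched and 2 depleted, with a median change of -0.34. The depleted share was 16.7%, beside 18.9% of all genes.

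*Dgkz*, which encodes diacylglycerol kinase zeta, an enzyme that removes the second messenger diacylglycerol after receptor engagement, scored 0.24, -0.23 and -0.46 in T0 and 1.82, 0.58 and 2.05 in the metastases. The groups did not overlap, but replicate 2 lay nearer to T0 than to the other metastasis libraries. The change was 1.63 ± 0.45 (adjusted p = 0.0421) with all libraries and 2.08 ± 0.27 (adjusted p = 0.00361) without replicate 2. Its 5 sgRNAs differed, with mean changes from 0.45 to 2.96. The strongest sgRNA had a signal of 329.8, 221.8 and 161.7 in T0 and of 2535, 194.8 and 4176 in the metastases, so that it was high in replicates 1 and 3 alone. *Dgkz* was called in 9 of 19 other fits. In the fit on all 41 libraries its adjusted p was 0.536, and 0.0443 with the lymph nodes left out. Among the other 9 diacylglycerol kinases, *Dgka*, the second form that T cells use, changed by 0.52 (adjusted p = 0.320), and *Dgkq* was depleted (-1.62 ± 0.29, adjusted p = 0.00598).

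The fourth enriched gene, *Ptges3*, encodes the HSP90 cochaperone p23, also known as cytosolic prostaglandin E synthase. It scored 0.01, -0.19 and -0.15 in T0 and 1.10, 0.80 and 0.66 in the metastases (change 0.97 ± 0.27, adjusted p = 0.0475), with 4 of 5 sgRNAs above T0. *Ptges3* was called in 6 of 19 other fits. Its adjusted p in the fit on all libraries was 0.999, and 0.575 with the lymph nodes left out. *B3gnt2*, the enzyme that starts poly-N-acetyllactosamine chains, scored 0.78, 0.74 and 0.23 in T0 and 0.98, 1.48 and 2.50 in the metastases. All 3 metastasis libraries and all 5 sgRNAs were above T0, but the change of 1.07 ± 0.44 did not pass (adjusted p = 0.157), and it passed with the nontargeting mean for centring (1.41, adjusted p = 0.0441). The other genes among the 10 largest increases with at least 4 sgRNAs above T0 also did not pass. These were *Slc5a12*, *Pigp*, *Mgat2*, *Agps* and *Alox8*, with changes from 0.78 to 0.86 and adjusted p from 0.0941 to 0.324.

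**Figure D2:**
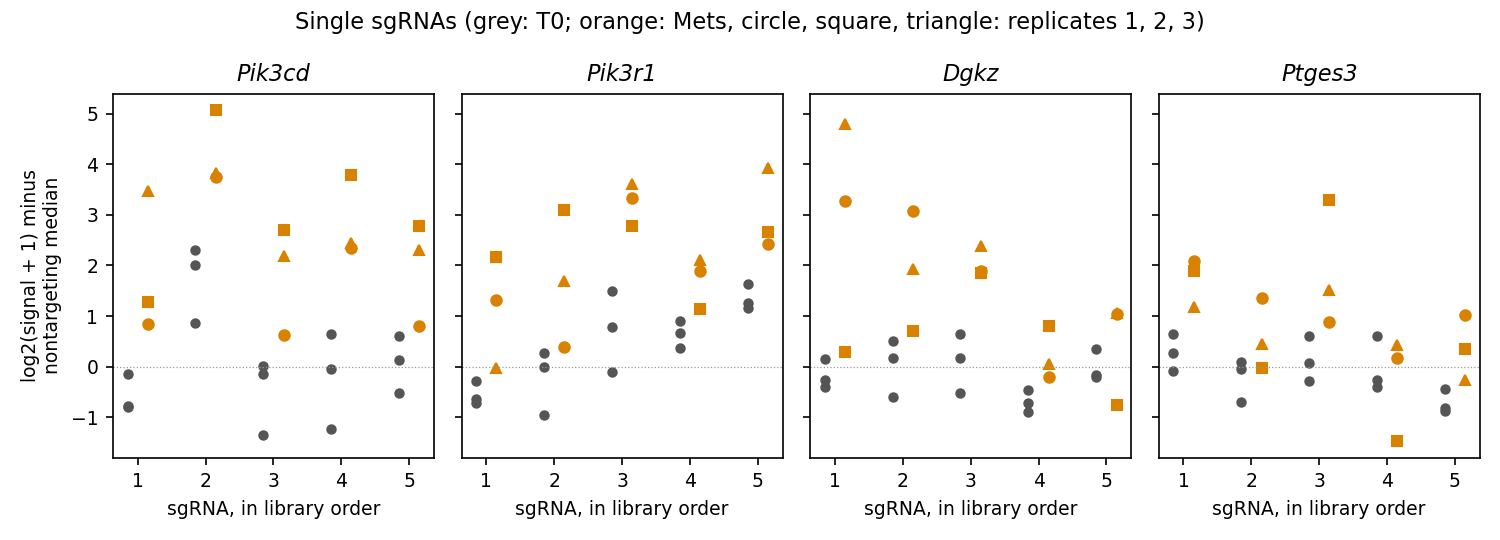
Scores of the 5 sgRNAs of each of the 4 enriched genes, as log2(signal + 1) minus the nontargeting median of the library (y axis), with the sgRNAs in library order on the x axis. Grey points are the 3 T0 libraries, and orange circles, squares and triangles are replicates 1, 2 and 3 of the metastases. All sgRNAs of Pik3cd and Pik3r1 changed upward on average (1.07 to 3.07), the highest points of Dgkz come from 3 of its sgRNAs, and the fourth sgRNA of Ptges3 changed by -0.27.

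Without replicate 2, the 13 enriched genes were these 4 and *Alg9*, *Alox8*, *Eno2*, *Gpx3*, *Has2*, *Krt77*, *Pla2g5*, *Slc1a6* and *Uxs1*, each of the 9 with a change between 0.75 and 1.12 there. With all 3 libraries, *Has2* and *Gpx3* changed by -0.08 and -0.32, so that replicate 2 alone decides their direction. Among these, the skin keratin *Krt77* and the hyaluronan synthase *Has2*, are genes with little known role in T cells. Among the genes named below as depleted, *Cad*, *Cmas*, *Cpt1a*, *Gclc*, *Icmt*, *Kmt2a*, *Msmo1*, *Mtmr6*, *Mtr*, *Slc46a1*, *St3gal1* and *Uros* did not pass without replicate 2, with adjusted p from 0.0509 (*Gclc*) to 0.112 (*Msmo1*) and changes from -2.45 (*Mtr*) to -1.21 (*Cpt1a*). *Amd1* (-1.33), *Mthfd2* (-0.91) and *Pole3* (-0.87) passed only there.

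Other genes of lipid second messengers were called in shares to be read beside the 18.9% of all genes. *Plcg1*, the phospholipase C that makes diacylglycerol and inositol trisphosphate after T cell receptor engagement, went from 0.02, -0.19 and 0.39 in T0 to -1.36, -2.12 and -2.02 in the metastases (change -1.90 ± 0.33, adjusted p = 0.00510), and its adjusted p in the fit on all libraries was 0.367. It was the only gene called among 14 phospholipase C genes, whose median change was -0.46. *Itpkb*, the kinase that phosphorylates inositol trisphosphate in lymphocytes, went from -0.01, 0.07 and 0.86 to -3.60, -4.74 and -2.59 (-3.95 ± 0.56, adjusted p = 0.00180). Only *Itpkb* and *Ippk*, which makes inositol hexakisphosphate, were depleted among 9 inositol phosphate kinases. Of 24 phosphoinositide phosphatases, 3 were depleted, among them *Inpp5k* (-3.64 ± 0.71, adjusted p = 0.00854) and *Mtmr6* (-1.32). *Inpp5k* scored 0.03, 0.38 and 0.63 in T0 and -3.19, -4.86 and -1.83 in the metastases. *Inpp5d*, which encodes the lipid phosphatase SHIP1 of blood cells, scored -2.08, -3.23 and -0.17 in the metastases, a wide spread, and did not pass (-1.96, adjusted p = 0.113). Of 11 other phosphatidylinositol kinases, *Pi4kb* (-3.43), *Pikfyve* (-2.94), *Pi4ka* (-2.79) and *Pip4k2a* (-1.12) were depleted.

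**Figure D3:**
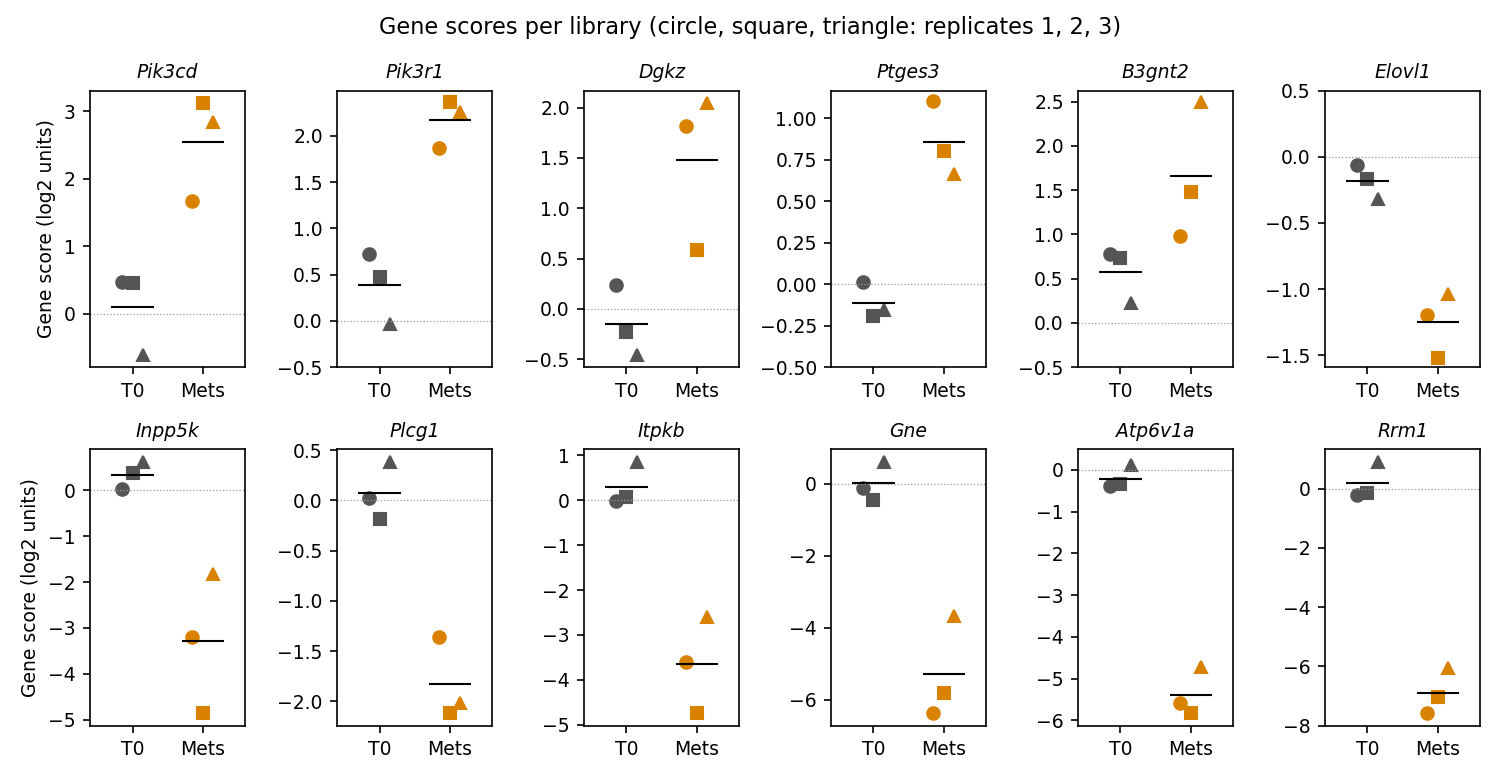
Gene scores (log2 units, y axis, own range in each panel) of 12 genes in T0 (grey) and in peritoneal metastases under anti-PD-1 (orange), with a circle, square and triangle for replicates 1, 2 and 3, a bar for the group mean and a dotted line at the nontargeting median. The groups do not overlap in any of the 12 panels, B3gnt2 included, which did not pass the threshold. T0 replicate 3 is the highest T0 library for Inpp5k, Plcg1, Itpkb, Gne, Atp6v1a and Rrm1, and the lowest for Pik3cd, Pik3r1, Dgkz, B3gnt2 and Elovl1.

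The 10 largest decreases, with changes from -7.57 to -6.74, included those of *Rpl36*, *Rrm1*, *Rps13*, *Ahcy*, *Rps19*, *Gapdh-ps15*, *Rpl3*, *Rps7* and *Mat2a*. *Rpl36*, a protein of the large ribosomal subunit, scored 0.04, 0.27 and 1.31 in T0 and -7.63, -7.06 and -6.39 in the metastases (-7.57 ± 0.47, adjusted p = 0.000107). All 5 of its sgRNAs lay at the shared lowest value in replicates 1 and 2 and 4 of 5 in replicate 3, so the change is a bound set by detection. *Gapdh-ps15*, an annotated pseudogene of *Gapdh*, changed by -6.87 against -4.06 for *Gapdh* itself, and as near-identical copies their sgRNAs may cut both loci, so the 2 values are uncertain as to the gene. T0 replicate 3 was the highest T0 library for each of these 10 genes.

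Of 20 genes annotated as cytosolic ribosomal proteins, 19 were depleted, with a median change of -5.85 over the 20. *Rpl9* went from -0.72, -0.61 and 0.74 to -6.12, -6.15 and -6.45 (-6.04 ± 0.44). The exception was *Rps3a3* (-0.96), a copy of *Rps3a*. The median score of the list was -0.29, -0.01 and 0.93 in T0 replicates 1 to 3 and -6.06, -5.91 and -5.43 in the metastases, so that part of the spread lies among the T0 libraries. Of 26 RNA polymerase subunits, 24 were depleted (median -4.66). *Polr1d*, shared by RNA polymerases I and III, went from -0.08, -0.05 and 0.63 to -5.63, -5.30 and -5.04 (-5.49 ± 0.33, adjusted p = 0.000107). The 2 that did not pass, *Polr3g* (-0.23) and *Polr3gl* (-0.19), encode alternative forms of the same polymerase III subunit. All 10 proteasome subunits were depleted (median -5.49), as were both cytosolic aminoacyl-tRNA synthetases in the library, *Eprs* (-5.22) and *Mars* (-4.61), and both mitochondrial ones, *Mars2* (-5.83) and *Ears2* (-5.64). These shares stand beside 18.9% of all genes.

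Nucleotide synthesis was also strongly depleted. Of 13 purine synthesis genes, 10 were depleted (median -5.13), from *Ppat* (-6.29), the first committed enzyme, to *Atic* (-3.13), the last of the pathway to IMP, and to *Gmps* (-5.27) and *Adss* (-4.74) on the guanine and adenine branches. The 3 that did not pass each have a second form in the library, namely *Impdh1* (-0.42), beside *Impdh2* (-5.17), and the 2 phosphoribosyl pyrophosphate synthetases *Prps1* (-0.26) and *Prps2* (-0.02). Of 14 pyrimidine and deoxynucleotide genes, 9 were depleted (median -2.18), led by both subunits of ribonucleotide reductase, *Rrm1* (-7.07) and *Rrm2* (-6.19). The de novo pyrimidine enzymes *Cad* (-1.74), *Dhodh* (-1.30) and *Umps* (-1.34) were depleted by far less, and with the nontargeting mean for centring their adjusted p was 0.130, 0.132 and 0.0577. Of 12 DNA polymerase and primase subunits, 9 were depleted (median -3.88), and *Pole3* (-1.30), *Pold4* (-0.27) and *Pole4* (-0.17), which are accessory subunits, did not pass.

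In one-carbon metabolism, 5 of 14 genes were depleted (35.7%, beside 18.9% of all genes). Among them were *Ahcy* (-6.99) and *Mat2a* (-6.74), which clear S-adenosylhomocysteine and make S-adenosylmethionine, *Mtr* (-3.21) and *Mthfd1* (-5.18). *Mthfd1*, a cytosolic enzyme, went from -0.02, 0.04 and 1.33 to -6.47, -5.08 and -2.63. The genes of serine synthesis and of the mitochondrial branch did not pass, *Phgdh* (-1.03), *Psat1* (-0.83), *Psph* (-0.89), *Shmt2* (-0.86), *Mthfd2* (-0.56) and *Mthfd1l* (-0.93), each within 0.5 of the median of all genes. The folate carrier *Slc19a1* (-2.89), *Slc46a1* (-1.68) and *Fpgs* (-3.04), which traps folate in the cell, were depleted. Of 5 polyamine genes none passed, with *Amd1* (-2.14, adjusted p = 0.0666) the lowest.

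**Figure D4:**
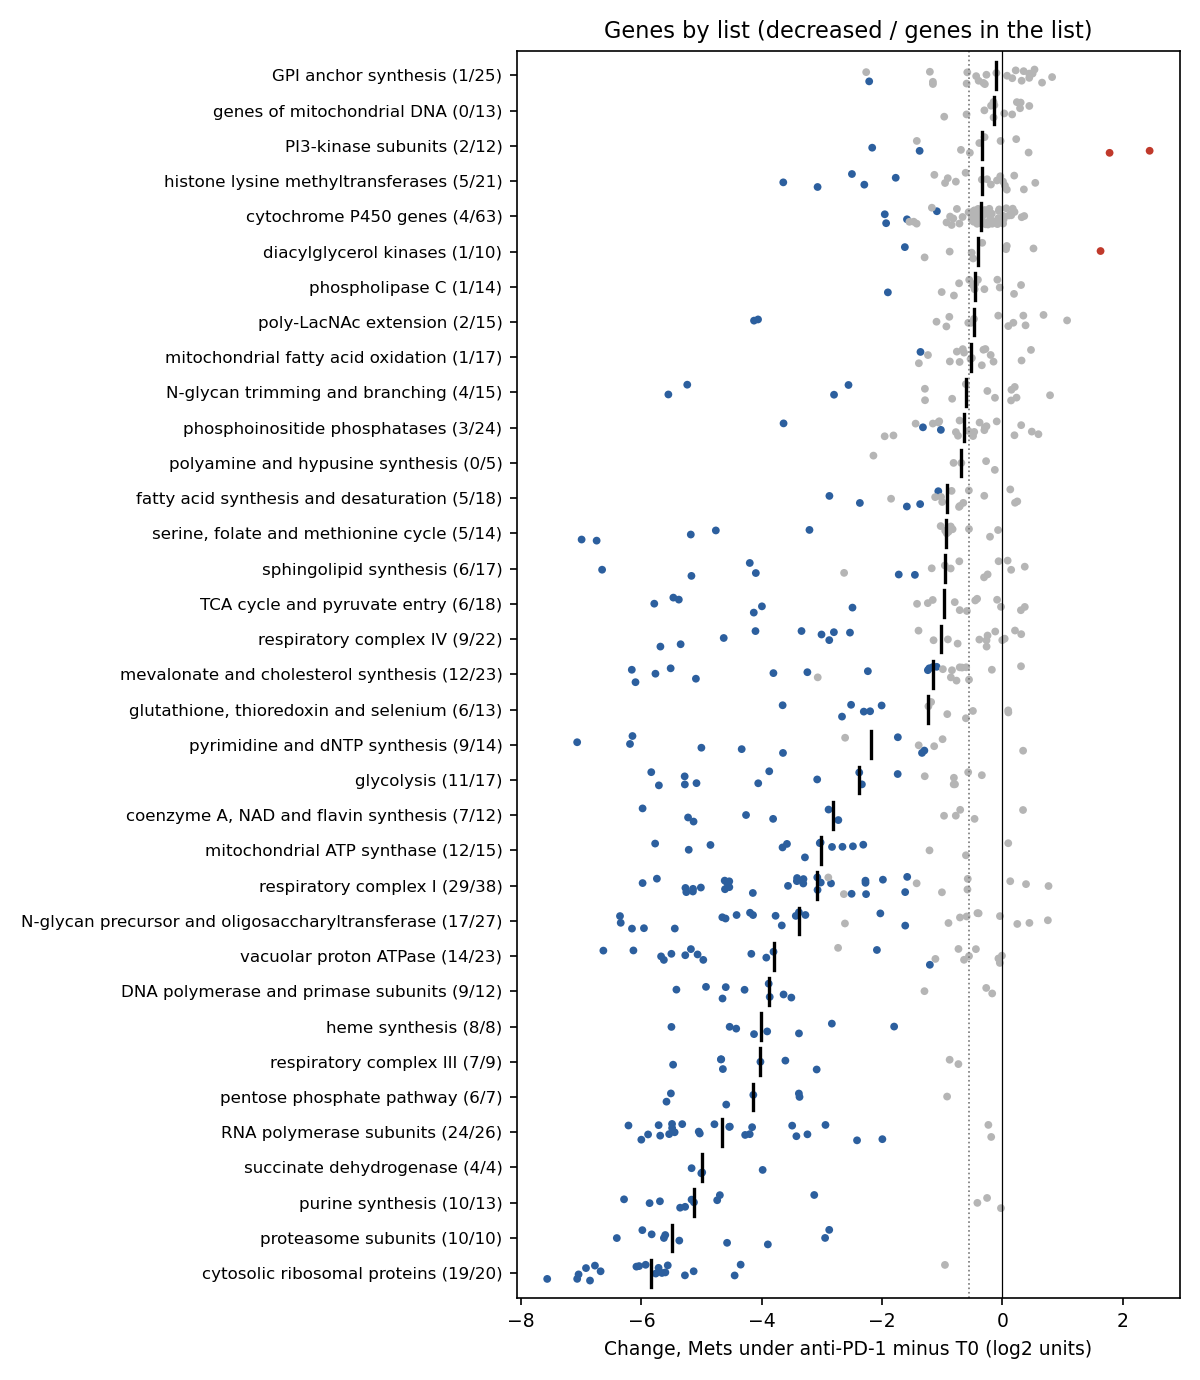
Changes from T0 to peritoneal metastases under anti-PD-1 (log2 units, x axis) of the members of 35 gene lists with at least 4 genes, sorted by the list median (black bar), with the number depleted of the number of genes in brackets. Red points are enriched, blue depleted and grey neither, the solid line is 0 and the dotted line the median of all genes (-0.55). Ribosomal, proteasome and purine genes have the lowest medians (-5.85, -5.49 and -5.13), and GPI anchor and mitochondrial DNA genes the highest (-0.10 and -0.13).

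Within glycolysis, 11 of 17 genes were depleted (median -2.38). The steps from aldolase to pyruvate kinase were lowest, with *Aldoa* (-5.84), *Tpi1* (-5.28), *Pgk1* (-5.28), *Pgam1* (-5.71) and *Pkm* (-5.08). *Pgam1* scored -0.37, -0.15 and 0.15 in T0 and -5.65, -6.82 and -5.04 in the metastases. The glucose carrier *Slc2a1* (-1.74), *Hk2* (-2.38) and *Ldha* (-2.34) were depleted less. The 3 phosphofructokinase genes, which encode forms of the same enzyme, were each near the median of all genes, with *Pfkl* at -0.79, *Pfkm* at -0.81 and *Pfkp* at -0.81, and *Hk1* was at -0.57 and *Aldoc* at -0.34. Of 7 pentose phosphate genes, 6 were depleted (median -4.14), among them *G6pdx* (-4.14) and *Tkt* (-5.51), between -3.37 (*Pgls*) and -5.58 (*Pgd*), and *Taldo1* (-0.92) was not. The list median was -4.37, -4.73 and -1.96 in metastasis replicates 1 to 3, so that replicate 3 was the least affected.

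Of 18 genes of the TCA cycle and pyruvate entry, 6 were depleted (33.3%, beside 18.9% of all genes), and the median change was -0.98. *Ogdh* (-5.38 ± 0.42), *Dlst* (-5.47) and *Dld* (-5.79), the 3 components of the 2-oxoglutarate dehydrogenase complex, were depleted, as were *Idh3a* (-2.49) and *Fh1*. *Idh3b* (-0.79) and *Idh3g* (-0.09), subunits of the same enzyme as *Idh3a*, did not pass, nor did the genes of succinyl-CoA ligase, from -1.42 (*Suclg1*) to -0.42 (*Sucla2*), or *Mdh2* (-1.24). The other genes of pyruvate entry did not pass, with *Mpc1* at 0.37 ± 0.35, *Pdha1* at 0.31 ± 0.37, *Pdhb* at -0.02 and *Dlat* at -0.71, and neither was citrate synthase, *Cs*, at -0.45. *Pdha1*, the catalytic subunit of pyruvate dehydrogenase, scored -0.13, 0.05 and 0.15 in T0 and -0.01, -0.05 and 1.04 in the metastases, whereas *Ogdh* scored -0.74, -0.42 and 0.65 and -5.47, -5.91 and -5.26. *Dld* is shared by both complexes. All 3 lipoic acid genes, *Lias* (-4.70), *Lipt1* (-5.38) and *Lipt2* (-3.02), which supply the cofactor of both complexes, were depleted. The order of the steps was looked at after the values were seen and has no test of its own.

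**Figure D5:**
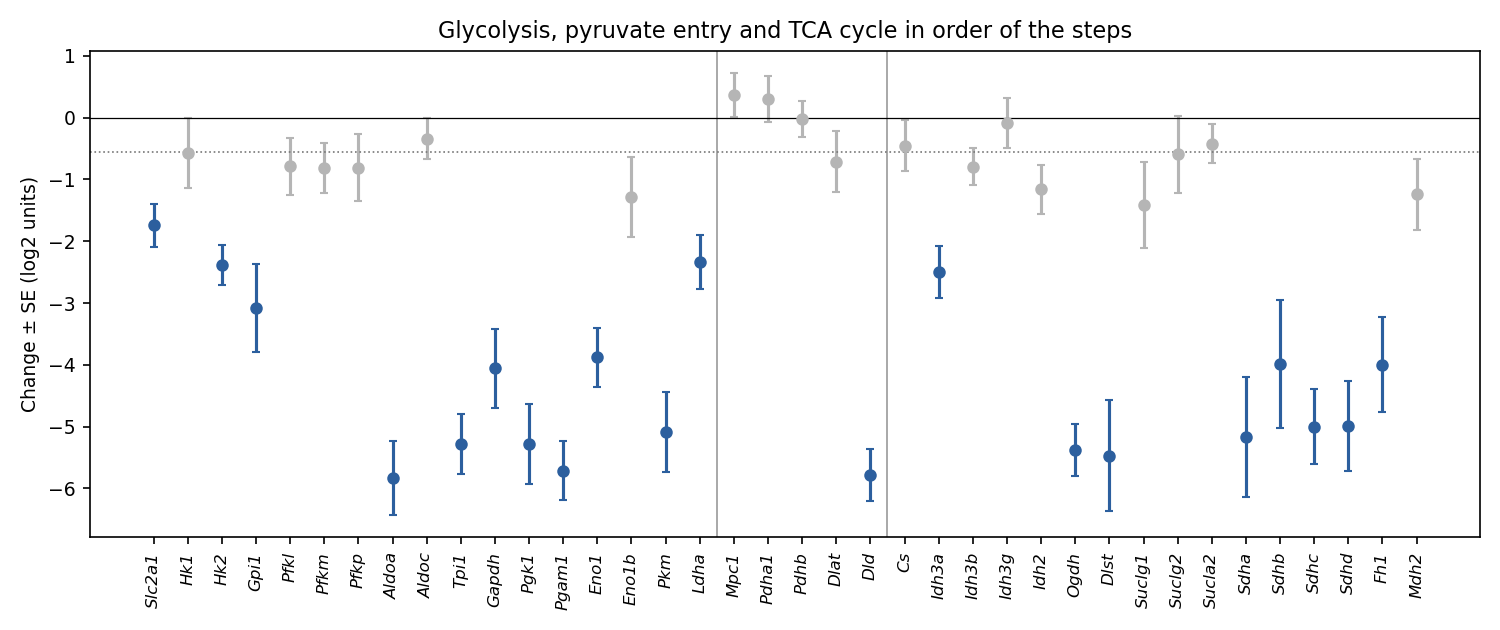
Change from T0 (log2 units, y axis, mean difference of 3 against 3 libraries, bars are SE) for selected genes of glycolysis, pyruvate entry, and the TCA cycle with succinate dehydrogenase, in order of the steps and separated by vertical lines. Blue points are depleted and grey points did not pass, and the dotted line is the median of all genes (-0.55). Ogdh, Dlst and Dld lie between -5.38 and -5.79, whereas Mpc1, Pdha1 and Pdhb lie between -0.02 and 0.37.

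Respiration was depleted across its complexes. Of 38 complex I genes, 29 were depleted (median -3.08), with *Ndufs1*, a core subunit, going from -0.28, -0.20 and 0.27 to -5.33, -5.86 and -4.06. *Ndufs4* (0.13) and *Ndufv3* (0.39), accessory subunits, and *Ndufa4l2* (0.77), an alternative form of *Ndufa4*, did not pass. All 4 succinate dehydrogenase genes were depleted, between -3.99 (*Sdhb*) and -5.17 (*Sdha*), and the list median was -5.47, -5.65 and -2.87 in metastasis replicates 1 to 3. Of 9 complex III genes 7 were depleted (median -4.02), and of 15 ATP synthase genes 12 (median -3.02), with *Atp5a1* (-5.77) and *Atp5b* (-5.21), the alpha and beta subunits of its catalytic head, the lowest. The 3 ATP synthase genes that did not pass, *Atp5g1* (-0.61), *Atp5g2* (0.10) and *Atp5g3* (-1.21), all encode the same c subunit. Of 22 complex IV genes and assembly factors, 9 were depleted (median -1.03). Those at the bottom were *Cox7b* (-5.68) and *Cox6c* (-5.35), and forms known from muscle or testis, *Cox7a1* (0.21), *Cox8b* (0.31), *Cox6b2* (0.04) and *Cox8c* (-0.12), did not pass, but neither did the broadly expressed *Cox7a2* (-0.38), *Cox8a* (-1.15), *Cox6a1* (-0.26), *Cox5b* (-0.74) and *Cox7c* (-1.39). The 13 genes of mitochondrial DNA itself, which encode core subunits of complexes I, III, IV and V, were not called in either direction (median -0.13, from -0.97 for *ND4* to 0.45 for *CYTB*). Whether their sgRNAs led to loss of these genes was not measured.

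The vacuolar proton pump was depleted in most of its subunits. Of 23 genes, 14 were depleted (median -3.81), among them *Atp6v0b* (-6.63), *Atp6v0c* (-6.13) and *Atp6v1a* (-5.18), which scored -0.40, -0.34 and 0.12 in T0 and -5.60, -5.83 and -4.73 in the metastases. The broadly expressed forms *Atp6v1b2* (-5.27), *Atp6v1e1* (-5.07) and *Atp6v1g1* (-5.67) were depleted, while their partners of kidney, testis or neurons, *Atp6v1b1* (-0.07), *Atp6v1e2* (-0.01) and *Atp6v1g2* (-0.04), did not pass. *Atp6v0d2*, also a form of restricted expression, was depleted (-1.21, adjusted p = 0.0445). All 8 heme synthesis genes were depleted (median -4.02), from *Fech* (-5.50) to *Uros* (-1.80), and 7 of 8 without replicate 2. *Alad* scored -0.28, 0.05 and 0.09 in T0 and -3.62, -4.57 and -3.68 in the metastases. Of 12 genes for coenzyme A, NAD and flavins, 7 were depleted (58.3%, beside 18.9% of all genes). *Ppcs* (-5.98) and *Nampt* (-5.13), the salvage enzyme for NAD, were among them. Of 13 glutathione, thioredoxin and selenium genes, 6 were depleted (46.2%, median -1.23), but 1 of the 13 in the fit on all libraries. The 6 included *Gclc* (-2.30), *Gss* (-2.67) and *Gpx4* (-2.01), which protects membranes from lipid peroxidation. *Nfs1* (-5.28), which serves iron-sulfur clusters, was depleted.

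Lipid pathways differed in how far they were depleted. Of 23 mevalonate and cholesterol genes, 12 were depleted (median -1.16). The enzymes that lead to farnesyl and geranylgeranyl pyrophosphate were lowest, with *Hmgcs1* (-6.16), *Mvk* (-6.10), *Pmvk* (-5.77), *Mvd* (-5.09), *Fdps* (-3.81) and *Ggps1* (-5.51), whereas *Fdft1*, the squalene synthase that opens the sterol branch, did not pass (-0.67 ± 0.29, adjusted p = 0.178). *Ggps1* scored -0.46, -0.15 and 0.33 in T0 and -6.66, -6.02 and -4.15 in the metastases, and *Fdft1* scored 0.79, 0.79 and 1.02 and 0.40, -0.14 and 0.34. In the sterol branch, *Msmo1* (-2.24), *Ebp* (-1.24), *Lss* (-1.22) and *Sqle* (-1.09) were depleted, and *Cyp51* (-0.71), *Nsdhl* (-0.86) and *Dhcr7* (0.31) did not pass. With the nontargeting mean for centring, 7 of the 23 genes of the list were depleted. *Fnta* (-5.14) and *Fntb* (-2.60), the farnesyltransferase, and *Icmt* (-2.17) were depleted among 5 protein prenylation genes.

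Of 18 fatty acid synthesis genes, 5 were depleted (27.8%, beside 18.9% of all genes), and the median change was -0.92. The 5 were *Scd1* (-2.88), *Tecr* (-2.37), *Acaca* (-1.59), *Fasn* (-1.37) and *Elovl1*, and none of the 18 was depleted in the fit on all libraries. *Elovl1*, which elongates saturated very long chain fatty acids, scored -0.06, -0.17 and -0.32 in T0 and -1.20, -1.52 and -1.03 in the metastases, without overlap. Its change was -1.07 ± 0.28 (adjusted p = 0.0343), but 3 sgRNAs were below T0 and 2 above, with changes of -3.05, -2.26, -0.83, 0.38 and 0.43. It was called in 6 of 19 other fits, its change was -0.73 with the nontargeting mean for centring (adjusted p = 0.112) and -0.93 without replicate 2 (adjusted p = 0.0235), and its adjusted p was 0.999 in the fit on all libraries. The other 6 *Elovl* genes did not pass, with changes from -1.12 (*Elovl4*) to 0.25 (*Elovl7*). Of 17 mitochondrial fatty acid oxidation genes 1 was depleted (5.88%), *Cpt1a* (-1.36 ± 0.37, adjusted p = 0.0392). *Cpt1a* did not pass without replicate 2 (adjusted p = 0.0685). Its mitochondrial partner *Cpt2* changed by 0.47. Of 17 sphingolipid genes 6 were depleted (35.3%), with *Kdsr* (-6.65), *Sptlc1* (-5.17), *Sptlc2* (-4.10) and *Ugcg* (-4.20) the lowest. The 6 ceramide synthases did not pass, between -0.72 for *Cers1* and 0.37 for *Cers6*. Among 18 phospholipid genes, 6 were depleted (33.3%). These were *Cdipt* (-6.27), the phosphatidylinositol synthase, *Cds2* (-5.33), *Pisd* (-4.69), *Pgs1* (-4.22), *Pcyt2* (-3.47) and *Etnk1* (-2.92).

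Glycosylation held both strongly depleted branches and branches with few calls. Of 27 genes for the N-glycan precursor and its transfer, 17 were depleted (median -3.38), including *Dpagt1* (-6.34), which starts the precursor, *Gmppb* (-6.36) and *Rpn1* (-5.45). The mannosyl- and glucosyltransferases that act in the lumen were mixed, with *Alg6* (-4.20) and *Alg8* (-1.62) depleted and *Alg3* (-0.42), *Alg9* (0.75) and *Alg12* (-0.04) not. Of 15 trimming and branching genes, 4 were depleted (26.7%, beside 18.9% of all genes), *Mgat1* (-5.55), *Ganab* (-5.24), *Mogs* (-2.80) and *Fut8* (-2.56). *Mgat1* opens complex N-glycans, and the later branching enzymes *Mgat2* (0.79), *Mgat4a* (0.20) and *Mgat5* (0.23) did not pass. Of 15 genes of poly-N-acetyllactosamine chains, 2 were depleted (13.3%, below the 18.9% of all genes). These were the galactosyltransferases *B4galt1* (-4.13) and *B4galt5* (-4.06), and the list median was -0.47. Of the genes that supply sugar donors, 5 of 7 in the hexosamine pathway were depleted (71.4%, median -4.32). So were 3 of 6 for UDP-galactose (50%, median -3.07) and 2 of 5 for GDP-fucose (40%, median -0.38). Among them were *Gfpt1* (-5.66), *Gnpnat1* (-3.73), *Pgm3* (-4.32) and *Uap1* (-4.37) for UDP-GlcNAc, *Ugp2* (-6.27) and the carrier *Slc35a2* (-5.76) for UDP-galactose, and *Gmds* (-2.01) and *Slc35c1* (-2.53) for GDP-fucose, while *Gfpt2* (0.25) and *Tsta3* (-0.29) did not pass. For sialic acid, 4 of 5 genes were depleted, *Gne* (-5.31), *Nans* (-4.19), *Cmas* (-2.94) and the carrier *Slc35a1* (-5.44), and *Gne*, the first enzyme, scored -0.10, -0.45 and 0.62 in T0 and -6.38, -5.82 and -3.67 in the metastases. *C1galt1* (-3.65) and *St3gal1* (-3.52), which build and cap O-glycans on T cells, and *Ogt* (-5.42) were also depleted. The lists of sugar donors, phospholipids, prenylation, inositol phosphate kinases, phosphatidylinositol kinases, lipoic acid, folate uptake, iron-sulfur clusters and amino acid carriers were drawn up after the values were seen.

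GPI anchor synthesis stood at the other end. Of 25 genes, 1 was depleted (4%, beside 18.9% of all genes), *Pigt* (-2.21 ± 0.42, adjusted p = 0.00756). The median change was -0.10 against -0.55 for all genes, or 0.19 against -0.36 without replicate 2. *Piga*, which starts the anchor, changed by 0.35, *Pigp* by 0.83, *Pigv* by 0.66 and *Pigx* by -2.26 (adjusted p = 0.190). CD90.1, the protein used to sort the cells, is itself anchored by GPI. *Dpm1*, *Dpm2* and *Dpm3*, which supply mannose to both GPI anchors and N-glycans, stand in both lists and did not pass (-0.60, 0.45 and -0.40).

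Of 21 histone lysine methyltransferases, 5 were depleted, *Dot1l* (-3.64), *Setd1a* (-3.07), *Kmt2a* (-2.50), *Kmt5a* (-2.30) and *Setdb1* (-1.77), near the background share. Of 63 cytochrome P450 genes, which are mostly liver enzymes, 4 were depleted (6.35%), and the median was -0.35. Among 14 amino acid carriers 5 were depleted (35.7%, beside 18.9% of all genes). *Slc7a5* (-3.20) and *Slc3a2* (-2.13), the 2 chains of the large neutral amino acid carrier, were the lowest. *Slc38a2* (-1.92), *Slc7a1* (-1.80) and *Slc38a1* (-1.22) were depleted too, and the glutamine carrier *Slc1a5* was not (-0.55).

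To ask what sets the peritoneal metastases under anti-PD-1 apart from related sites, their libraries were tested directly against those of the primary tumour under anti-PD-1 (3), of the spleen under anti-PD-1 (3) and of the peritoneal metastases under IgG (2 with values). In each of the 3 comparisons, limma called 0 of 2078 genes (0%). Without metastasis replicate 2, which carries the spleen label, it also called 0 in each. The values had been adjusted between organs before deposit, which can remove differences between sites, and each group holds only 2 or 3 libraries. The absence of calls therefore does not show that the sites are alike. At an unadjusted p under 0.05 there were 10 higher and 66 lower genes against the primary tumour, 27 and 34 against the spleen, and 50 and 43 against IgG. The median difference over all genes was -0.29, 0.07 and 0.01, respectively, so a typical gene also lay lower than in the primary tumour. These comparisons share the metastasis libraries, and the same T0 libraries underlie all changes from T0.

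No difference passed for the genes enriched against T0. *Pik3cd* scored 2.16, 3.24 and 3.23 in the primary tumour libraries, 2.99, 3.57 and 4.07 in the spleen and 1.94 and 1.11 in IgG replicates 2 and 3. The difference of the metastases was -0.32 ± 0.53 from the tumour, -0.99 ± 0.65 from the spleen and 1.02 ± 0.65 from IgG. *Pik3r1* scored 1.57, 1.98 and 2.29 in the tumour, 2.15, 1.86 and 2.71 in the spleen and 1.52 and 2.04 under IgG, and the difference from IgG was 0.39 ± 0.57 (adjusted p = 0.949). For *Dgkz*, the differences were 0.03 ± 0.51, -0.17 ± 0.64 and 0.29 ± 0.68 from tumour, spleen and IgG. *Ptges3* scored 0.40, 0.60 and -0.01 in the tumour, 0.31, -1.45 and 0.66 in the spleen and 0.49 and 0.05 under IgG, all at or below the lowest metastasis library, and the differences of 0.52 ± 0.42, 1.02 ± 0.68 and 0.58 ± 0.56 did not pass. *Elovl1* scored -0.20, -0.76 and 1.02 in the tumour, 0.96, -1.20 and 0.61 in the spleen and 0.01 and -0.16 under IgG. The metastases minus tumour, spleen and IgG came to -1.27 ± 0.52, -1.37 ± 0.69 and -1.17 ± 0.56, with adjusted p of 0.954, 0.992 and 0.949.

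2 genes had the lowest adjusted p of these comparisons and were named for that after their values were seen. *Umps*, which makes UMP in de novo pyrimidine synthesis, scored -0.90, -0.92 and -0.91 in the metastases and -2.97, -2.76 and -3.21 in the primary tumour, a difference of 2.07 ± 0.40 (adjusted p = 0.698). *Cops4*, a subunit of the COP9 signalosome, scored -3.54, -3.52 and -2.85 in the metastases and -0.23, 0.35 and 1.91 in the spleen, a difference of -3.98 ± 0.69 (adjusted p = 0.190). With the spread taken from all libraries but the lymph nodes, *Cops4* passed (adjusted p = 0.0062), the only gene to do so.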

How the data were processed

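The abundance of each sgRNA was measured in genomic DNA of sorted or input T cells. Per the study's methods, MAGeCK was used by the authors to count reads, and they then scaled libraries to the nontargeting sgRNAs and adjusted them between organs with ComBat. The deposited values are therefore a normalized signal and not whole reads. Depth is unknown, no count model was used and no counting interval can be given. The adjustment can move low values, so the lowest value of an sgRNA was taken as shared where several libraries of a replicate number held it within a relative tolerance of 1e-09.

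Samples were grouped by their titles. Scores were computed as log2(signal + 1), averaged over sgRNAs and centred on the nontargeting median. T0 and the metastases under anti-PD-1 were compared with limma 3.58.1 in R 4.3.3 (lmFit and eBayes, two-sided, Benjamini-Hochberg over all genes), with only these 6 libraries in the fit and no covariate. A fold on this scale understates the change of low sgRNAs. The procedure was run on simulated data in which all sgRNAs of a shifted gene moved alike. Real sgRNAs of a gene differed, so that run does not show that the calls here hold. The labels call the replicates biological, without naming animals, so p-values measure the spread between these libraries.

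The groups and gene lists were chosen with earlier results of these data known. Named were up to 10 of the largest changes in each direction with at least 4 sgRNAs in that direction, members with the largest and smallest change of each list, and genes that the study names. Not every such gene is described, some items are not reported here, and other list members were named after their values were seen. Of 2078 library symbols, 2039 matched the RefSeq gene table and 33 more matched by an older symbol. Genes that have near-identical copies are uncertain. Alternatives were other centring, pseudocounts, sgRNA summaries, filters, sample sets and weights, and each library left out.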

Additional observations from a re-analysis of the deposited data

How the results depend on the processing

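None of 23 named genes changed direction in the alternatives run. Most of the 23 were picked for a large change with at least 4 sgRNAs in that direction, and the alternatives reuse the same libraries, so a constant direction was likely beforehand. *Has2* and *Gpx3*, not among the 23, went from -0.08 and -0.32 to 1.07 and 0.81 without metastasis replicate 2. Over the 23 genes, 378 fits kept the call or its absence, 41 lost a call and 10 gained one. *Elovl1* and *Ptges3* lost their call in 13 fits each, *Dgkz* in 10, and *Pik3cd* and *Pik3r1* in 2 each. The count of enriched genes (4) became 1 with the values as deposited, 10 with the nontargeting mean and 11 with the median of all sgRNAs for centring. It became 2 without the lowest 10% of sgRNAs, 2 with shared lowest values set to 0, 0 with all libraries in the fit and 3 with all but the lymph nodes. The count of depleted genes (393) became 256 with the median over sgRNAs and 180 without the lowest 10% of sgRNAs. Leaving out 1 library gave 2 to 13 enriched and 289 to 569 depleted genes. Leaving out both T0 replicate 3 and metastasis replicate 2, chosen after seeing the data, gave 2 and 283. Without T0 replicate 1, 2 or 3, 2 genes were enriched each time, and without metastasis replicate 1, 2 or 3, 7, 13 and 7 were. Without metastasis replicate 3, 569 genes were depleted. Without metastasis replicate 2, the 13 enriched genes became 30 with the nontargeting mean, 47 with the median of all sgRNAs and 3 with the spread of all libraries but the lymph nodes, where 279 genes were depleted. These 3 settings were chosen after seeing the data. The difference from the spleen went from 0 to 1 gene with that spread. With the replicate number as a block, 3 genes were enriched and 389 depleted, and 0 were called in each direct difference. Deviations of same-numbered libraries correlated at -0.03, -0.24 and 0.15. With 3 libraries per group and values adjusted before deposit, these correlations cannot decide whether the numbers pair the samples. The count test planned for whole reads was not run, since the values are not whole. The causes of these shifts were not tested.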
